A study of Mus musculus with 4 samples.

Results

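Isolated crypts were compared with whole intestine, each measured on 1 one-colour Agilent array, which are 2 of the 4 arrays of the series. Both came from wild type C57/BL6 mice, and 20 ng of total RNA went into each labelling. For neither sample do the sources used here give the age or sex of the mice, the stretch of gut, any pooling of animals or the way crypts were isolated. The remaining arrays hold crypt-villus organoids, epithelium grown in culture, labelled y-organoid (20 ng) and o-organoid (40 ng); they serve here only as a view of epithelium without its surroundings. The comparison takes in every spot that is not a control, and 18197 of 30106 named genes were well above background on at least 1 of both arrays, by the scanner software's own flag; a gene that was not is called dim. A level is the log2 of a gene's processed intensity over the 75th percentile of its array, and a difference is crypt minus intestine on that scale, so that 1 is 2-fold and 2 is 4-fold. With 1 array a side there is no replicate check, and no p-value or error between groups can be given. Repeated spots give the error within an array: the median SD of a difference over 10 spots of a probe was 0.12, and 0.37 for probes with a mean level below -2. Where a gene was above background on 1 array only, the fold is a lower bound and is written "at least".

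The intestinal wall is built in layers. A single sheet of epithelium folds into villi, which absorb nutrients, and into crypts, which hold dividing cells. At the crypt base, stem cells that carry the R-spondin receptor Lgr5 sit between Paneth cells, which secrete lysozyme and defensins. Their daughters divide, leave the crypt and become absorptive enterocytes, mucus-secreting goblet cells, hormone-secreting enteroendocrine cells or chemosensory tuft cells, and are shed at the villus tip. Beneath the sheet lie fibroblasts, vessels and immune cells, then smooth muscle with its nerve plexuses and an outer mesothelium. Crypt preparations are meant to keep the epithelium and leave these layers behind. In bulk RNA, fewer cells of a type and less of a transcript per cell cannot be told apart.

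Differences also went with the sequence of the array probe. Shown here are 4 probes through which genes with some of the largest differences upward were read. Each line gives the first 30 bases of the 60-base probe, 5′ to 3′, with stretches of the triplet AGG, in any phase, in capitals.
Sox5 probe: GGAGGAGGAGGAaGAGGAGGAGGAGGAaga
Cplx2 probe: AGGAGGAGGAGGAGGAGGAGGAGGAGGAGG
Vash1 probe: GAGGAGGAGGAGGAGGAGGAGGAGGAGGAG
Osr2 probe: gatcacctacgggatcacaggtatatccat
The file places the Sox5 probe at chr6:143776945-143776971, the Cplx2 probe at chr13:108816800-108816859 and the Vash1 probe at chr6:16808968-16809027 of build mm9. The Osr2 probe spans chr15:35230691-35231706, a stretch longer than the probe, and holds no such repeat. For Vash1 the file's chromosome is not that of the gene in RefSeq. Only chromosomes were compared, so a probe placed away from its gene on the same chromosome would not be seen. Sox5, Cplx2 and Vash1 stood among the 15 largest measured differences upward of genes with an official symbol, and so did Osr2. Above Sox5 lay 14 entries without an official symbol, 10 of them read by probes with AGG or AAG repeats. The largest of the 14 had a difference of 4.84, and its probe held no such repeat. The largest difference through a repeat probe was 4.38.

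Promoters of genes that differed together are shown next, from RefSeq (GRCm38.p6), as the 250 bases before the annotated start, with matches to a motif on either strand in capitals. Ccnb2, a mitotic cyclin that was 3.13-fold higher on the crypt array, carries CCAAT, the box that the factor NF-Y binds, 3 times (chr9:70421555-70421804, minus strand).
Ccnb2 promoter: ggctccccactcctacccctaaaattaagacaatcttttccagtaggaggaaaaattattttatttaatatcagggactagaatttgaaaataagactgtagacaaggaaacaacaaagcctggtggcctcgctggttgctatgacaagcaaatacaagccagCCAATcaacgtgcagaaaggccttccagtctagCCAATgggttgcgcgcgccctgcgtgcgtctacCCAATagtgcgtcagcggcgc
Isg15, an antiviral ubiquitin-like protein induced by interferon that was 15.3-fold lower, carries GAAA, a pair of any bases and GAAA again, the core of the interferon-stimulated response element, with 3 overlapping matches (chr4:156200819-156201068, minus strand).
Isg15 promoter: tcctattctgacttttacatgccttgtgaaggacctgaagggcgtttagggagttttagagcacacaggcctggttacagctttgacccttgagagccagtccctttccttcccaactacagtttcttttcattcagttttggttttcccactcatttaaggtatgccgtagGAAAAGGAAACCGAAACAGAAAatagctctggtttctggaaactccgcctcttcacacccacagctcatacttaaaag
Cel, a pancreatic lipase that was 12341-fold lower, carries CACCTG, an E-box of the kind that the acinar factor PTF1 uses, 4 times (chr2:28563404-28563653, minus strand).
Cel promoter: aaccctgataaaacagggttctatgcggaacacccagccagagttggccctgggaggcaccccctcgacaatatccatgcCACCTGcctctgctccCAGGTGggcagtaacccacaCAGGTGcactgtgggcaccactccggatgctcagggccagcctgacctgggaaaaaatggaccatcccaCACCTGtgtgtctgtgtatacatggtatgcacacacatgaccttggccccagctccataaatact
The CCAAT box stood in 80% of the 25 starts of the mitosis list and 59.3% of the 27 of the DNA replication list, against 33.8% of all 32851 starts in the table. TTTGAA, the cell cycle homology region, stood in 32% of the mitosis starts and 15.99% of all. The interferon element's core stood in 50% of 18 interferon response starts and 2.98% of all, and CACCTG in 65.2% of 23 acinar starts and 17.2% of all. GAANNTTC, a unit of the heat shock element, stood in 33.3% of 18 heat shock starts and 6.69% of all. The CArG box of serum response factor, which drives both muscle and immediate early genes, stood in 17.9% of 28 immediate early starts, in 1 of 27 smooth muscle starts and in 1.47% of all. These are matches of letters in a fixed window and say nothing of binding. Each promoter shown holds several matches, but not every leading gene has them. The promoters read for the acinar genes Cpa1 and Ctrb1 hold no CACCTG, that for Hsph1 no GAANNTTC and that for Fos no CArG box.

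Most genes measured on both arrays, 12921 of 15197, lay within 2-fold. Those beyond were nearly evenly split, with 1156 lower in crypts and 1120 higher. With bounds included, 2582 genes, or 14.2%, were at least 2-fold lower, while 1242 genes, or 6.83%, were at least 2-fold higher. Genes with only a bound supplied 1426 of the lower and 122 of the higher. Past 4-fold, 1328 genes (7.3%) were lower and 65 genes (0.357%) higher. Of the 1328, 869 were dim in crypts. The largest measured differences downward belonged to pancreatic enzymes and reached -13.59 for Cel, whereas the largest measured upward for a gene with an official symbol was 2.86, for Sox5. Genes at or past 32-fold (5 on the log2 scale) numbered 65 measured and 184 bounded on the lower side and 1, Eif2s3y, on the higher side. The balance depends on where 0 is set. Calls upward made up 32.5% of the 2-fold calls here, 53.9% after quantile normalization, 81.6% on the deposited scaling by the array median and 6.91% with the pan-epithelial genes put at 0. The deposited scaling moved the median of all genes from 0.07 to 0.84. List medians for tuft, mid-villus, villus tip, villus bottom, proximal, colonic and xenobiotic genes, all below 0 here, turned positive with it, and those for Paneth, endocrine, immediate early, fatty acid oxidation, acetylcholine, Notch and housekeeping genes turned negative with the pan-epithelial genes at 0.

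**Figure D1:**
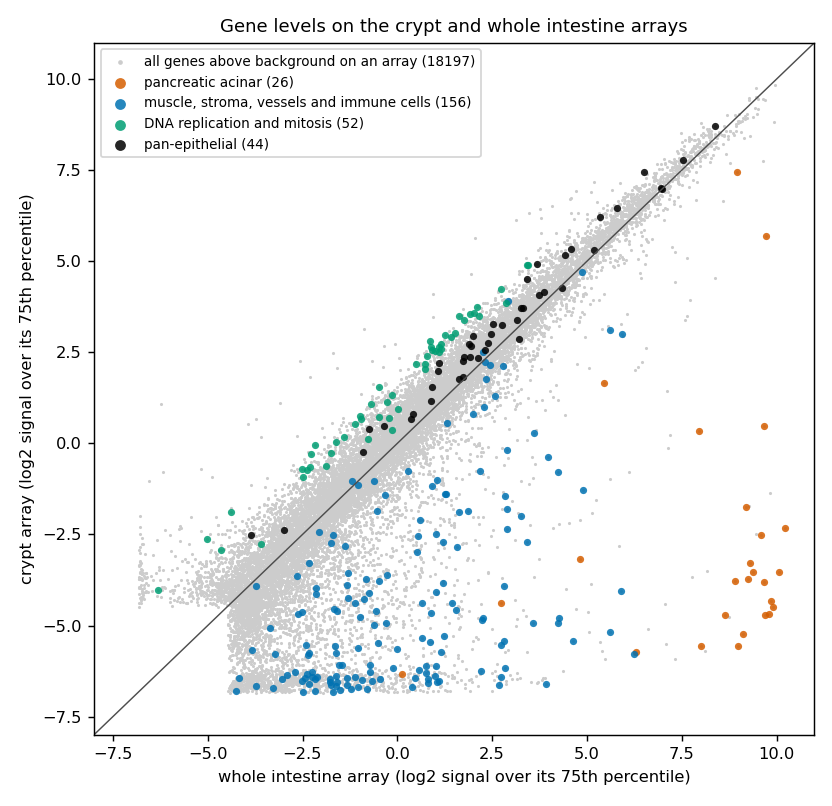
Level of each gene on the crypt array (vertical, log2 signal over the array's 75th percentile) against the intestine array (horizontal, same unit), 1 array each, with the diagonal at equal levels. Grey points are the 18197 genes above background on at least 1 array and coloured points are list members: most muscle, stromal, vessel and immune genes and all acinar genes lie below the diagonal, most DNA replication and mitosis genes above it, and pan-epithelial genes along it.

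The intestine array held markers of every layer of the wall, and the crypt array held those of epithelium, of dividing cells and, at nearly the same brightness, of villus enterocytes. Genes of the epithelial sheet as a whole were near equal: of 44 pan-epithelial genes, 5 were at least 2-fold higher and none lower, with a median of 0.50 against 0.07 over all genes. Epcam, an adhesion protein of epithelia, was at 3.31 in intestine and 3.72 in crypts, 1.33-fold higher, and Krt8, a keratin of simple epithelia, at 7.52 against 7.79 in crypts, 1.20-fold higher. Those higher included the transcription factors Klf5, Ehf, Grhl2 and Cdx1, at differences from 1.08 to 1.23; the other probe of Grhl2 gave 0.33. Epithelial lists are also given relative to 0.50. Housekeeping genes had a median of 0.18 over 17 genes; Gapdh was at 8.13 on the intestine and 8.17 on the crypt array, 1.03-fold higher.

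Transcripts of the muscle coat were largely lost from the crypt array. Of 23 smooth muscle genes above background, 20 were at least 2-fold lower and none higher, with a median of -2.83. Acta2, smooth muscle actin, was at 4.26 in intestine and -4.80 in crypts, at least 441-fold lower. Actg2, the actin of visceral muscle, was at 4.23 against -4.92 in crypts, at least 430.4-fold lower, and Myh11, the smooth muscle myosin heavy chain, at 0.98 on the intestine and -6.37 on the crypt array, at least 45.6-fold lower. All 3, and Des with them, were dim in crypts. Members that stayed within 2-fold included Ppp1r12b and Tpm1, both above background on the organoid arrays too. Summed over the 26 members with a probe, signal in units of the 75th percentile was 244 on the intestine and 22.1 on the crypt array. Among pacemaker genes, 5 of 6 were at least 2-fold lower, among them the chloride channel Ano1 at 0.30 in intestine and -2.24 in crypts, 5.82-fold lower. Kit, the receptor that defines these cells but is also found in epithelium, was at -1.41 against -1.70 in crypts, 1.23-fold lower. For the mesothelium, 2 of 6 were that much lower; Msln, mesothelin, was at -0.26 on the intestine and -6.81 on the crypt array, at least 19.2-fold lower.

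Nerve genes were lower as well, with fewer left above background. Of 17 enteric neuron genes, 11 were at least 2-fold lower and 1, Tac1, higher, with a median of -1.79. The neuropeptide gene Vip was at -1.18 in intestine and -6.66 in crypts, at least 10.2-fold lower. Gal, for the neuropeptide galanin, was at 4.27 against -2.22 in crypts, 90.2-fold lower. Tac1, which encodes substance P and is also made by enteroendocrine cells, was at 0.19 on the intestine and 1.26 on the crypt array, 2.11-fold higher. With normexp, another background correction, 6 were lower and none was called higher, and the median was -0.74. Restricted to genes above background on both arrays the neuron median was -0.14, over 5 genes. The glial list had 5 of 7 genes at least 2-fold lower, and 3 with normexp; S100b was at -2.11 in intestine and -5.28 in crypts, at least 5.32-fold lower.

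Nearly all genes of fibroblasts and their matrix were lower. Of 31 genes, all above background on the intestine array, 30 were at least 2-fold lower, with a median of -4.90 (-3.15 with normexp), and 7 were above background on the crypt array. Sparc, a matrix glycoprotein, was at 5.61 against -5.18 in crypts, at least 1123-fold lower. The proteoglycan Dcn was at 4.65 on the intestine and -5.42 on the crypt array, at least 576-fold lower, and the collagen chain Col1a1 at 2.24 in intestine and -4.85 in crypts, at least 109-fold lower. Fbln1, fibulin 1, was the exception at 2.25 against 2.51 in crypts, 1.20-fold higher; the median of its other measured probes, 0.29, lay close by. It was also above background on both organoid arrays.

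Stromal cells supply signals that hold stem cells in place: Wnt ligands, R-spondins that amplify them, and antagonists of the differentiation signal BMP. Of 21 such genes, 17 were lower by at least 2-fold in crypts and none higher, with a median of -2.92; only 4 of 24 were above background there. Rspo3, the R-spondin listed as defining, was at -2.17 on the intestine and -6.48 on the crypt array, at least 5.11-fold lower. Grem1, a BMP antagonist, was at 0.82 in intestine and -6.56 in crypts, at least 40.5-fold lower. The ligand Bmp4 was at 1.55 against -4.57 in crypts, at least 67.5-fold lower, and Foxl1, a transcription factor of cells beneath the crypt, at -2.40 on the intestine and -5.53 on the crypt array, at least 4.36-fold lower. Wnt5a was at -1.65 in intestine and -5.57 in crypts, at least 7.35-fold lower. The members above background on the crypt array were Wnt4 at -2.69, Bmp2 at -0.75, Nog at -2.72 and Ptch1 at -3.29; each was also above background on both organoid arrays. The other probe of Wnt4 gave a difference of -2.05, against -3.90. With normexp the list median was -1.40 and 15 genes were lower. Over these 4 alone the median was -1.01. The epithelium's own signal to this stroma, Ihh, was at 2.62 against 3.42 in crypts, 1.74-fold higher.

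Vessels followed the stroma, with 17 of 20 genes at least 2-fold lower and a median of -3.00. With normexp the median was -1.61 and the count 13. Plvap, a protein of fenestrated capillaries, was at 2.82 on the intestine and -3.91 on the crypt array, 106-fold lower. Vwf, von Willebrand factor, was at 1.03 in intestine and -4.09 in crypts, 34.8-fold lower, and Cdh5, the cadherin of endothelial junctions, at -2.33 against -6.60 in crypts, at least 4.59-fold lower. Kdr, the VEGF receptor, was at 2.79 on the intestine and 2.11 on the crypt array, 1.60-fold lower, and Aqp1, a water channel, at 2.91 and 3.91; both were also bright on the organoid arrays, at 2.94 and 1.11 for Kdr and at 4.29 and 3.47 for Aqp1.

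**Figure D2:**
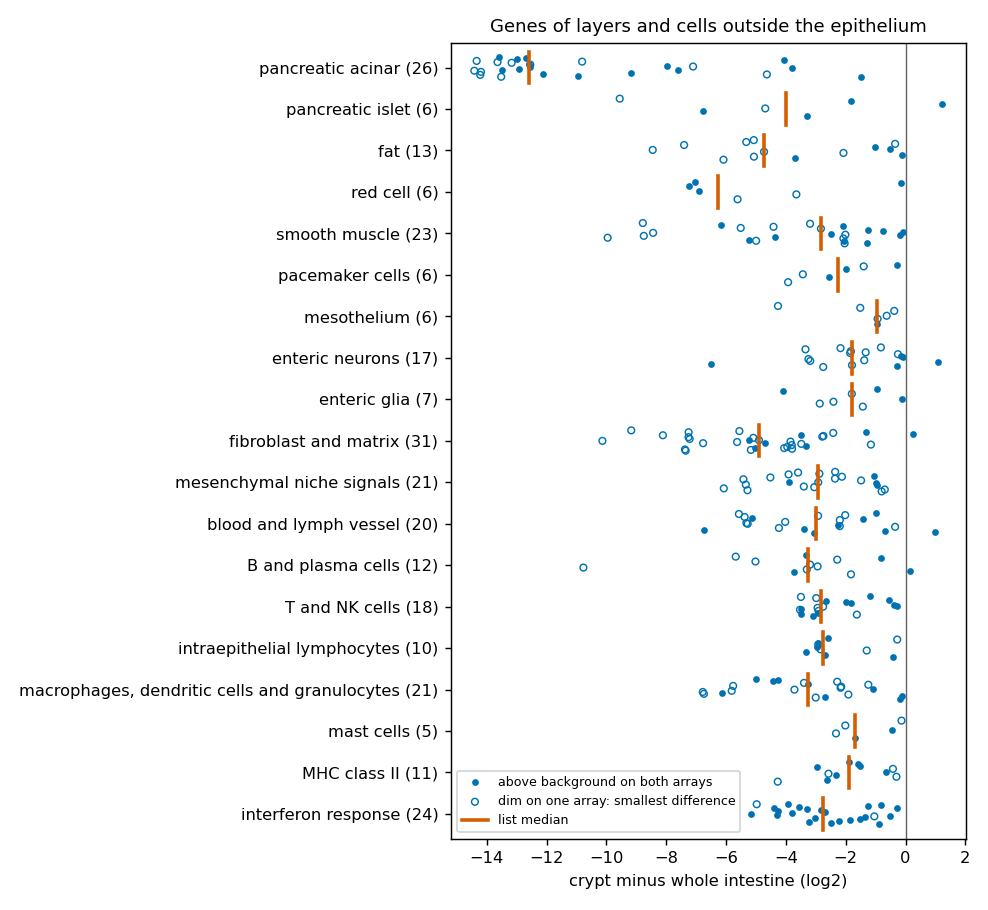
Difference between the crypt and the intestine array (horizontal, log2) for each member of 19 lists of layers, cells and responses, most of them outside the epithelial sheet. Intraepithelial lymphocytes live within the sheet, and interferon genes are expressed by epithelial cells too. The number of members above background on at least 1 array is in brackets. Filled points were above background on both arrays, open points are the smallest difference the dim array allows, and the bar is the list median, which lies below 0 in all 19.

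Most genes of each immune cell type listed were lower in crypts. B and plasma cell genes were at least 2-fold lower for 10 of 12, with a median of -3.25 (8 and -1.72 with normexp). Jchain, which joins the chains of secreted IgA, was at 6.25 in intestine and -5.79 in crypts, at least 1746-fold lower. Cd79a was at -0.27 against -3.60 in crypts, 10.1-fold lower, though another of its probes gave 0.38. Macrophage, dendritic cell and granulocyte genes were at least 2-fold lower for 19 of 21, with a median of -3.27; the complement gene C1qa was at 2.25 on the intestine and -4.80 on the crypt array, at least 109.8-fold lower, and the macrophage receptor Csf1r at 4.23 in intestine and -0.79 in crypts, 32.3-fold lower, with a median of -2.18 over its 2 other measured probes. With normexp the list median was -1.87 and 14 of 21 genes were lower.

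T and NK cell genes were at least 2-fold lower for 15 of 18, with a median of -2.83, and genes of lymphocytes that live within the epithelium for 8 of 10, with a median of -2.77. With normexp the counts were 12 and 7 and the medians -1.47 and -1.34. On the crypt array 11 of 19 and 6 of 11 members were above background. On the y-organoid array 8 and 2 were, and on the o-organoid array 7 and 2. Above background in crypts yet dim on both organoid arrays were 4 and 3. The defining genes Cd3e and Lck were at 0.80 and -1.40 in crypts, at 0.48 and -1.16 on the y-organoid array and at -0.50 and -2.77 on the o-organoid array. Gzma, the granzyme of cytotoxic lymphocytes, was at 5.92 against 3.01 in crypts, 7.53-fold lower, and not above background on the organoid arrays at -4.65 and -5.54. Gzmb was at 1.29 on the intestine and -1.40 on the crypt array, 6.46-fold lower. Cd3g, a chain of the T cell receptor complex, was at 0.52 in intestine and -2.98 in crypts, 11.3-fold lower, and Cd8a at -1.32 against -3.90 in crypts, 5.99-fold lower; all 3 were dim on both organoid arrays. Of the 459 genes at least 4-fold lower yet above background on the crypt array, 18.7% were dim on both organoid arrays, against 3.20% of the 15705 genes above background on the crypt array. The 459 were not matched on level with the 15705, so no conclusion is drawn from these shares. Of 5 mast cell genes, 3 were at least 2-fold lower; the protease Mcpt1 was at -2.20 on the intestine and -4.64 on the crypt array, at least 5.01-fold lower. With normexp 1 of them was.

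**Figure D3:**
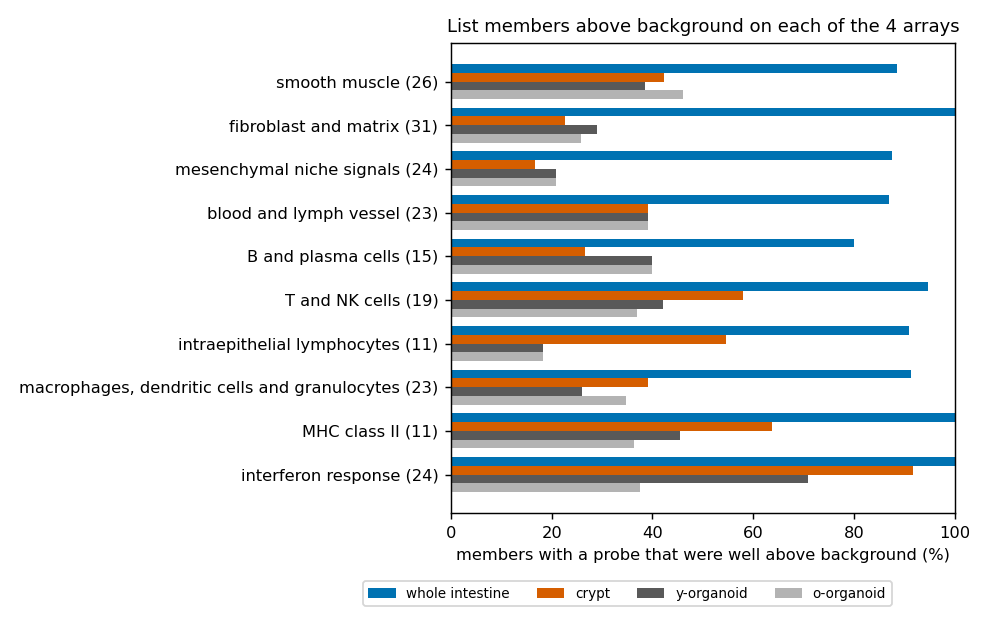
Share of list members with a probe (number in brackets) that were well above background on each of the 4 arrays, 1 array per bar. The crypt bars lie below the intestine bars in every list; for intraepithelial lymphocytes the crypt bar, at 6 of 11, stands above both organoid bars, at 2 of 11 each.

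Antigen presentation and the interferon response were lower too, yet most of their genes stayed above background on the crypt array. Of 11 MHC class II genes, whose products show peptides to helper T cells, 8 were at least 2-fold lower. H2-Ab1 was at 6.43 in intestine and 4.55 in crypts, 3.70-fold lower, H2-Eb1 at 5.91 against 3.29 in crypts, 6.12-fold lower, and the invariant chain Cd74 at 5.55 on the intestine and 3.23 on the crypt array, 4.99-fold lower. On the y- and o-organoid arrays H2-Ab1 was at -3.22 and -5.01, so that its crypt level lay nearer that of the intestine. Of 24 interferon response genes, 20 were at least 2-fold lower and none higher, with a median of -2.76, while 22 were above background on the crypt array. Isg15, whose promoter is shown above, was at 6.56 in intestine and 2.63 in crypts, 15.3-fold lower, and its other probe gave -4.14. Oas1a, a sensor of viral RNA, was at 6.05 against 3.56 in crypts, 5.64-fold lower. Gbp3, a guanylate-binding protein, was at 1.06 on the intestine and -4.12 on the crypt array, 36.3-fold lower, and the chemokine Cxcl10 at 0.49 in intestine and -3.77 in crypts, 19.1-fold lower. Psmb8, Psmb9, Ifit2 and Tap1 stayed within 2-fold; Tap1, the peptide transporter, was at -0.28 against -0.56 in crypts, 1.22-fold lower. Interferon genes are expressed by immune, stromal and epithelial cells alike, and the part of the lost layers in their difference was not tested.

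Tissue from outside the gut wall gave the largest differences. All 26 pancreatic acinar genes were lower by 2-fold or more, with a median of -12.57. Prss2, a trypsinogen, was at 9.69 on the intestine and -4.72 on the crypt array, at least 19051-fold lower. Cel was at 10.06 in intestine and -3.53 in crypts, 12341-fold lower, Ctrb1, chymotrypsinogen, at 10.21 against -2.33 in crypts, 5976-fold lower, and Pnlip, pancreatic lipase, at 9.12 on the intestine and -5.23 on the crypt array, at least 12772-fold lower. Ptf1a, the transcription factor of acinar cells, was at 0.11 in intestine and -6.33 in crypts, at least 24.9-fold lower. Spink1, a trypsin inhibitor that the gut also makes, differed least at 8.95 against 7.46 in crypts, 2.82-fold lower. Probes of the trypsin genes Try4 and Try5 share a run of 31 bases, so their signals are not independent. Islet genes were lower for 5 of 6, with the insulin gene Ins1 at 5.03 on the intestine and -4.64 on the crypt array, at least 752-fold lower; Gcg, which gut endocrine cells share, was the 1 at least 2-fold higher. Fat genes were lower for 10 of 13, with the fatty acid carrier Fabp4 at 2.88 in intestine and -6.60 in crypts, at least 169-fold lower, and the 4 fat genes above background on both arrays had a median of -0.77. Red cell genes were lower for 5 of 6, with the globin gene Hba-a1 at 5.14 against -1.90 in crypts, 131-fold lower. Tff2, a trefoil factor of the stomach and of Brunner's glands in the duodenal wall, was at 7.07 on the intestine and -4.40 on the crypt array, at least 2841-fold lower. Of 5 genes of that list, 2, Tff2 and Tff1, were at least 2-fold lower.

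Across the lists of muscle, serosa, nerve, stroma, vessels and immune cells together, 162 of 197 genes were at least 2-fold lower and 1 was higher, a share of 82.2% beside the 14.2% of all genes. For pancreas, fat and blood the counts were 46 and 1 of 51. All were above background on the intestine array, but only 75 of the 197 and 27 of the 51 on the crypt array. The rest could come out only lower or without a fold, so the shares are not a test. Among members above background on both arrays, 8 of 11 smooth muscle and 6 of 7 fibroblast genes were at least 2-fold lower. So were 7 of 9 vessel, 7 of 9 macrophage and 1 of 5 neuron genes. Of the 1328 genes at least 4-fold lower, 58.1% were dim on both organoid arrays, against 11.7% of all 18197. As 869 of the 1328 were dim on the crypt array too, these shares are not matched on level, and no conclusion is drawn.

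Within the epithelium, 92 of 311 listed genes were at least 2-fold higher and 24 lower, beside 6.83% and 14.2% of all genes, and the genes of dividing cells stood highest. Most of the 92 came from the mitosis, DNA replication and ribosome biogenesis lists, with 24, 22 and 13, so the pooled share depends on which lists it holds. Of 26 mitosis genes, 24 were at least 2-fold higher on the crypt array and none lower, with a median of 1.64, or 1.15 above the pan-epithelial median. Mki67, the proliferation antigen, was at 2.73 in intestine and 4.23 in crypts, 2.83-fold higher, with its other probe at a difference of 1.52. Top2a, which untangles DNA, was at -0.49 against 1.55 in crypts, 4.10-fold higher, and Cdk1, the kinase of mitotic entry, at -2.26 on the intestine and -0.29 on the crypt array, 3.92-fold higher. Ndc80, which ties chromosomes to the spindle, was at -4.38 in intestine and -1.88 in crypts, 5.63-fold higher, close to background on the intestine array. Hmmr lay under 2-fold, and Ttk, dim in intestine, had a bound under it; Tpx2 passed it, at 1.65, though its other probe gave -0.21. DNA replication genes were higher for 22 of 26, with a median of 1.49. Mcm3, a part of the replicative helicase, was at 0.87 against 2.81 in crypts, 3.84-fold higher, and Pcna, the polymerase clamp, at 2.86 on the intestine and 3.86 on the crypt array, 2.01-fold higher. Ribosome biogenesis genes were higher for 13 of 23, with a median of 1.07; Gar1, of the small nucleolar RNA complex, was at 1.71 in intestine and 3.52 in crypts, 3.53-fold higher, and the nucleolar methylase Fbl at 1.62 against 2.87 in crypts, 2.38-fold higher.

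Stem cell markers were higher, but the median of the stem cell list lay close to that of the pan-epithelial genes. All 4 defining markers passed 2-fold. Lgr5 was at -1.75 on the intestine and -0.39 on the crypt array, 2.56-fold higher. Ascl2, the transcription factor of these cells, was at 0.95 in intestine and 2.40 in crypts, 2.72-fold higher. Olfm4, a secreted glycoprotein of the crypt base, was at 1.09 against 2.41 in crypts, 2.50-fold higher, and Smoc2, a matrix-associated protein, at 2.80 on the intestine and 3.96 on the crypt array, 2.23-fold higher. All 4 were higher still on both organoid arrays, with Lgr5 at 2.85 and 2.32. Over the 28 genes of the list, 10 were at least 2-fold higher and 3 lower, and the median of 0.52 lay 0.02 from the pan-epithelial one. That distance depended on processing, at 0.29 with quantile normalization and -0.17 with normexp. With normexp 8 genes were higher and 1 lower. In the main processing the 3 lower were Nkd1, Tnfrsf19 and Phlda1. Nkd1, an inhibitor of Wnt signalling that Wnt induces, was at -1.34 in intestine and -2.97 in crypts, 3.08-fold lower. Tnfrsf19, a receptor, had a difference of -1.14, and its other probe gave -0.27. Phlda1 was at a difference of -1.01. Axin2, a common readout of Wnt signalling, was at -3.23 against -2.59 in crypts, 1.56-fold higher. Among 7 genes proposed to mark reserve stem cells, Lrig1 alone was called, at 0.43 on the intestine and 1.51 on the crypt array, 2.12-fold higher; Hopx was at 1.67 in intestine and 2.20 in crypts, 1.45-fold higher, and Bmi1 at -0.85 against -0.72 in crypts, 1.09-fold higher.

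Paneth, goblet and endocrine genes kept close to the epithelial median. Of 19 Paneth genes, 3 were at least 2-fold higher and 1 lower, and the median was 0.46. Lysozyme, Lyz1, was at 7.38 on the intestine and 8.03 on the crypt array, 1.56-fold higher, and the protease Mmp7, which activates defensins, at 3.13 in intestine and 3.81 in crypts, 1.61-fold higher. The higher ones were Kcnn4, a potassium channel, Defa21 and Defa31. Defensin genes are near-identical copies, with probes sharing up to 29 bases, so single members are uncertain. Nupr1, a stress-induced chromatin protein that pancreas also makes, was at 7.11 against 1.45 in crypts, 50.5-fold lower. Goblet genes were higher for 3 and lower for 3 of 23, with a median of 0.51; the trefoil factor Tff3 was at 8.18 on the intestine and 8.15 on the crypt array, 1.02-fold lower, and Zg16, a lectin of the mucus, at 9.93 in intestine and 8.83 in crypts, 2.14-fold lower. Klk1, a kallikrein found in pancreas as well, differed by -4.22, to 3.38 on the crypt array. Retnlb was the other lower gene, and Ern2, a stress sensor of mucous cells, Creb3l4 and Galnt12 were the higher ones, Ern2 at -2.55 against -1.20 in crypts, 2.54-fold higher. Acinar genes as a whole were lower beside Nupr1 and Klk1, and their part in either difference was not tested.

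Endocrine genes differed in both directions. Of 25, 5 were at least 2-fold higher and 3 lower, with a median of 0.31. Neurog3, the transcription factor that starts the lineage, was at 0.15 on the intestine and 1.65 on the crypt array, 2.83-fold higher, and Insm1, which acts after it, at -1.52 in intestine and -0.24 in crypts, 2.43-fold higher. Chgb and Nts were also higher. Pyy, a hormone of distal gut, was at -0.53 against -1.81 in crypts, 2.42-fold lower, and Cpe, a hormone-processing peptidase that neurons and islets share, at 3.03 on the intestine and 1.34 on the crypt array, 3.23-fold lower; Scg2 was the other lower. Tuft cell genes had a median of -0.04 over 18, with 1 higher and 1 lower. Avil, advillin, was at -4.08 in intestine and -2.59 in crypts, 2.81-fold higher; Ptgs1, a cyclooxygenase also present in stroma, at 1.47 against -1.79 in crypts, 9.54-fold lower. The defining tuft genes Dclk1 and Trpm5 lay within 2-fold, and Pou2f3, dim in crypts, was at least 1.42-fold lower.

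Villus genes were below the epithelial median by a modest amount. Mid-villus absorption genes, the transporters, hydrolases and lipid handlers of enterocytes, had a median of -0.16 over 30 genes, -0.66 from the pan-epithelial median; 1, the peptidase Xpnpep2, was at least 2-fold higher and none lower. Sucrase-isomaltase, Sis, was at 6.29 on the intestine and 6.35 on the crypt array, 1.04-fold higher, the peptidase Anpep at a difference of 0.03 and the glucose transporter Slc5a1 at 2.12 in intestine and 1.55 in crypts, 1.49-fold lower. Enterocyte transcripts were nearly as bright on the crypt as on the intestine array. Villus tip genes had a median of -0.48, -0.97 from the pan-epithelial one, and 5 of 16 were at least 2-fold lower. Ada, adenosine deaminase, was at 7.32 against 5.26 in crypts, 4.16-fold lower. Slc28a2, which takes up nucleosides, was at 2.71 on the intestine and 1.05 on the crypt array, 3.15-fold lower, and Enpp3, an ecto-nucleotidase, at 3.60 in intestine and 2.31 in crypts, 2.45-fold lower. Neat1, a nuclear long non-coding RNA, was at 4.78 against 3.35 in crypts, 2.70-fold lower, and Klf4, a factor of differentiated cells, at 2.97 on the intestine and 1.91 on the crypt array, 2.08-fold lower. Apoa4, an apolipoprotein of the upper villus, was at 6.63 in intestine and 6.26 in crypts, 1.29-fold lower. On the deposited scaling both medians turned positive, at 0.58 and 0.26, while their distance from the pan-epithelial median was the same by construction.

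At the villus bottom, antimicrobial genes differed in both directions, with 2 higher and 3 lower of 12. Their median was -0.63, -1.13 from the pan-epithelial one and further from it than that of the mid-villus or tip genes. Reg1 was at 9.64 against 7.74 in crypts, 3.72-fold lower, and the bactericidal lectin Reg3b at 7.86 on the intestine and 6.69 on the crypt array, 2.25-fold lower. Duoxa2, which matures a hydrogen peroxide-making oxidase, was the other lower gene, at -1.14. Reg1 is also a pancreatic protein. Gsdmc4, a gasdermin, was at -0.63 in intestine and 0.97 in crypts, 3.02-fold higher, and dim on both organoid arrays. Pigr, which carries IgA across the epithelium, was at 5.27 against 6.61 in crypts, 2.54-fold higher; its probe holds an AGG repeat, and its other probe gave 0.09.

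Proximal markers were above background in both samples, and so were 9 of 11 ileal and 4 of 9 colonic genes with a probe. Gata4 and Onecut2, factors of duodenum and jejunum, were at 2.27 and 4.04 on the crypt array and within 2-fold of the intestine. The ileal bile acid genes Slc10a2 and Fgf15 were dim on both arrays, and Fabp6 was at -3.26 on the intestine and -2.51 on the crypt array, 1.68-fold higher. The colonic factor Hoxb13 was dim on both. Of 12 proximal genes, 5 were at least 2-fold lower, and these were carriers of metals, calcium and folate: Cybrd1, an iron reductase, at -1.33 in intestine and -3.62 in crypts, 4.89-fold lower; Slc40a1, the iron exporter ferroportin, at 3.23 against 1.11 in crypts, 4.35-fold lower; S100g, a calcium-binding protein, at 7.25 on the intestine and 5.40 on the crypt array, 3.60-fold lower; Slc46a1, a folate and haem carrier, at -1.38; and Slc30a10, a manganese exporter, at -1.26. The 7 others, Adh1 among them, stayed within 2-fold. Of 9 ileal genes 2 were higher, Cubn and Slc23a1, and 1 lower, Slc51b. Some were bright: Clec2h was at 5.70 on the intestine and 4.85 on the crypt array, and Slc51b at 3.59 and 2.43. Slc23a1 was low, at -2.55 and -1.48. The colonic gene B4galnt2 was at 6.14 on the intestine and 6.08 on the crypt array. The stretch of gut was not tested.

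**Figure D4:**
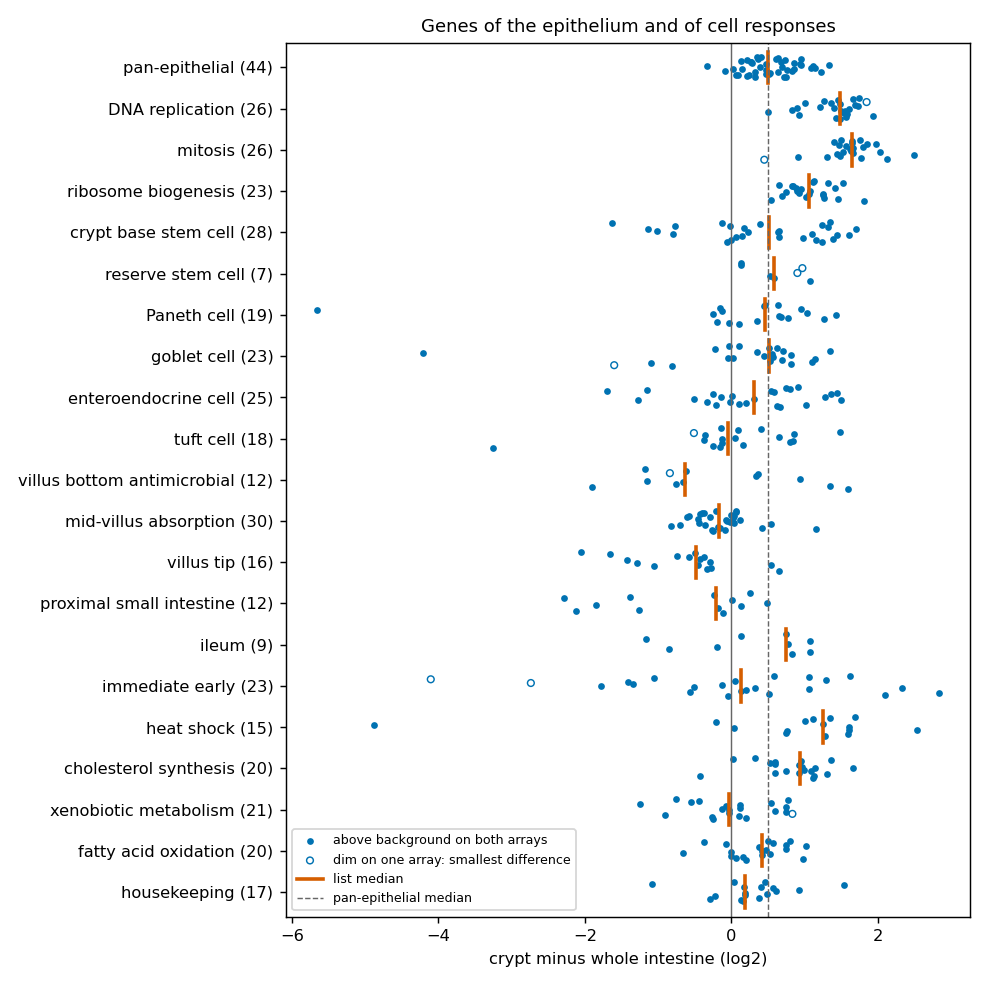
Difference between the crypt and the intestine array (horizontal, log2) for each member of 21 lists of epithelial programmes, regions and responses, with the number of members above background on at least 1 array in brackets. Filled and open points and bars are as for the lists of other layers and cells. The dashed line is the pan-epithelial median of 0.50: mitosis and DNA replication lie to its right and the villus lists to its left.

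Cell responses also differed. Heat shock genes, chaperones that rise with protein damage and in dividing cells, were higher for 10 of 15, with a median of 1.26. Hsph1 was at 0.93 in intestine and 3.47 in crypts, 5.80-fold higher, with its other probe at a difference of 2.58, and Hspa1a at -3.85 against -2.16 in crypts, 3.23-fold higher. Hspb1, a small heat shock protein abundant in muscle, went the other way at 2.52 on the intestine and -2.37 on the crypt array, 29.5-fold lower. Immediate early genes, which respond within minutes to growth factors or handling, were higher for 7 and lower for 6 of 23. Fosb was at -2.64 in intestine and 0.21 in crypts, 7.18-fold higher, and Egr1 at -0.97 against 1.36 in crypts, 5.02-fold higher. Fos was at 0.60 on the intestine and 2.22 on the crypt array, 3.07-fold higher, and on the organoid arrays at -3.85 and -2.65. Klf2, a factor of endothelium and lymphocytes, was at -0.38 in intestine and -4.48 in crypts, at least 17.2-fold lower. Whether handling of the tissue moved these genes was not tested.

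In metabolism, cholesterol synthesis genes were higher for 8 of 20 and none were lower, with a median of 0.94 (4 and 0.69 with normexp). Lss, which closes the sterol ring, was at -2.60 against -0.94 in crypts, 3.17-fold higher, and Cyp51, a sterol demethylase, at -3.13 on the intestine and -1.76 on the crypt array, 2.58-fold higher. Fatty acid oxidation genes had a median of 0.42, with 1 of 20, Pdk4, past 2-fold. Xenobiotic metabolism genes had a median of -0.03, with 1 of 21, Cyp3a13, past 2-fold.

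The signals that crypt cells exchange among themselves were mixed. Of 14 genes of Notch, Hedgehog and EGF signalling, the Notch targets Hes1 and Nrarp were at least 2-fold higher. Hes1 was at -4.00 in intestine and -2.85 in crypts, 2.22-fold higher, and Nrarp at -3.68 against -2.05 in crypts, 3.11-fold higher. The EGF receptor ligands Egf, Areg and Ereg were lower: Areg, amphiregulin, was at -0.28 on the intestine and -2.30 on the crypt array, 4.06-fold lower, and Egf at -1.16 in intestine and -4.43 in crypts, at least 9.68-fold lower. Hey1 and Errfi1 were the other lower members. With normexp 0 of the list were at least 2-fold higher and 2 lower. For acetylcholine, the subject of the series, 14 of 30 genes of choline carriers, cholinesterases and acetylcholine receptors were above background. Chat, the enzyme that makes it, counted here with the neurons, was dim on both arrays. Bche, a cholinesterase, was at 3.59 against 3.99 in crypts, 1.31-fold higher. The muscarinic receptor Chrm1 was at -4.38 on the intestine and -2.94 on the crypt array, at least 2.72-fold higher, and the nicotinic subunit Chrna10 at -3.47 in intestine and -2.42 in crypts, 2.07-fold higher, while the choline transporter Slc44a2 was at 0.68 against -0.66 in crypts, 2.52-fold lower; no other member was measured or bounded past 2-fold, and with normexp the list's count was 0 higher and 1 lower.

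Several of the genes highest in crypts belong to none of the lists. Osr2, a zinc finger transcription factor, was at -3.87 on the intestine and -1.14 on the crypt array, 6.61-fold higher, and dim on both organoid arrays. Enpp7, a sphingomyelinase of the brush border, was at -1.99 in intestine and 0.44 in crypts, 5.37-fold higher, and dim on both organoid arrays as well. Sfrp5, a secreted antagonist of Wnt ligands, was at 0.05 against 2.35 in crypts, 4.91-fold higher. The core histone genes H2bc8, H3c1 and H2ac6 were at differences of 2.63, 2.31 and at least 3.55. Malat1, a nuclear long non-coding RNA, was at -0.64 on the intestine and 1.63 on the crypt array, 4.82-fold higher. Mreg, melanoregulin, was at -3.45 in intestine and -0.94 in crypts, 5.67-fold higher.

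Repeat-bearing probes moved together. Of 41 probes with at least 12 bases of an AGG repeat, 25 were the brightest probe of a gene and above background on both arrays. A probe passed over for a brighter one of its gene was not counted. All 25 of these genes were higher on the crypt array, with a median of 2.66 and 24 past 2-fold. For AAG repeats, counted in the same way, all 66 of 66 genes were higher, with a median of 0.94 and 30 past 2-fold. Probes with AG, AC, GT or CT repeats had medians of 0.44, -0.08, -0.18 and -0.33, beside 0.15 for the 14934 genes with none of these. Sox5 was at 3.47 against 6.33 in crypts, 7.24-fold higher, Cplx2 at 4.55 on the intestine and 6.70 on the crypt array, 4.44-fold higher, and Vash1 at 4.72 in intestine and 6.93 in crypts, 4.62-fold higher. Other measured probes of these genes gave medians of 2.32 over 4 for Cplx2 and 1.12 over 2 for Vash1. All 3 had like levels on the y-organoid array, at 6.82, 6.95 and 7.28, and lower ones on the o-organoid array, at 4.86, 5.16 and 5.35. Over the AGG probes the median level was 3.13 on the intestine, 6.13 on the crypt, 6.24 on the y-organoid and 4.16 on the o-organoid array. In 8 genes measured through an AGG or AAG probe and through another without it, the median was 1.15 by the repeat probe and 0.06 by the other. Genes read by AGG or AAG probes made up 21 of the 65 genes at least 4-fold higher, or 32.3%. Without those probes 45 genes were that much higher and 1327 lower. Where both could be read, the file's chromosome for the probe differed from the gene's chromosome in RefSeq for 2 of 8 genes with AGG and 3 of 15 with AAG probes, against 0.267% of 14626 genes with none of the repeats. Which transcripts these probes bound was not tested.

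**Figure D5:**
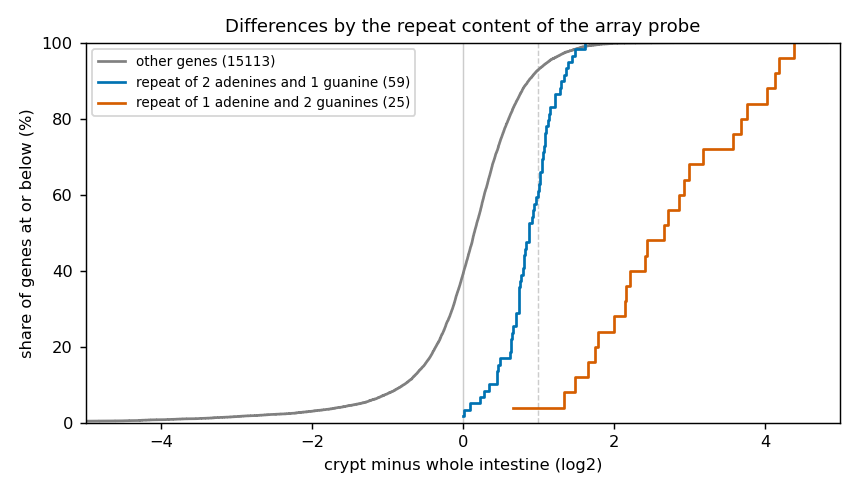
Cumulative share of genes (vertical, %) at or below a difference between the crypt and the intestine array (horizontal, log2; solid line at 0, dashed line at 2-fold), for genes above background on both arrays, by the repeat that their probe holds. Genes read through probes with repeats of 1 adenine and 2 guanines lie furthest right, all above 0. The axis ends at -5 and 5, and a probe with both repeats counts under that of 1 adenine and 2 guanines.

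The 2 samples also differed in sex-linked transcripts. Xist, the RNA of the inactive X chromosome, was at -1.17 against -6.22 in crypts, at least 10.3-fold lower. The Y-linked gene Ddx3y was at -6.54 on the intestine and -1.04 on the crypt array, at least 10.8-fold higher, and Eif2s3y at -6.22 in intestine and 1.08 in crypts, at least 46.9-fold higher. Differences by tissue and by the sex of the source cannot be told apart in these arrays.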

How the data were processed

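Expression was measured with 1 array each for crypt and whole intestine, so groups were compared without a test, and the number of arrays limits the precision. Spot intensity was deposited by the authors as processed signal, background-subtracted and detrended by Agilent Feature Extraction 10.7.3.1, per the file headers; control spots (1377 per array) were left out. A value table deposited beside these holds a ratio of each processed signal to its array's median and served as an alternative scaling; its scale and centring were found by comparison with the scanner values. Intensities were divided by each array's 75th percentile and put on the log2 scale. Outlier spots were dropped, spots of a probe averaged, and a gene took the value of whichever probe was brightest on average across all 4 arrays. Probes (39429) were named through RefSeq (GRCm38.p6): accessions named 27324, symbols 3518 and synonyms 551, and the file's name stayed for 8036. A bound set the bright level against the dim array's lowest level flagged above background, or against the dim probe's own signal where that was higher. Genes whose probes disagreed on being above background (33) were counted without a fold. The 45 gene lists, 851 of 866 genes matched, and the comparison were chosen with earlier results of these data known. Named genes are the defining markers of each list, its 6 members with the largest difference, and the 15 largest measured differences and 8 largest bounds each way among genes with an official symbol; members named to complete a count or for a small difference, Axin2 among them, were chosen after their values were seen, and some genes that the rule takes are given only in counts or are not reported here. The script was tested on simulated data with 200 changed genes. Alternatives were 4 other scalings or background corrections, 2 other filters, 2 other ways to combine spots and probes, and leaving out repeat-bearing probes. limma 3.58.1 supplied normexp and quantile normalization.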

Additional observations from a re-analysis of the deposited data

How the results depend on the processing

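Each count and each list median, taken as its distance from the median of all genes, was recomputed under 8 alternatives planned ahead and 1, leaving out probes with AGG or AAG repeats, chosen after seeing the data. Of 268 named genes, none past 2-fold changed direction, and no list median past 2-fold from all genes did. The reported distances were -12.64 for acinar, -2.90 for smooth muscle, -4.97 for fibroblast, -3.34 for macrophage, -2.83 for interferon, 0.45 for stem cell, 1.58 for mitosis, -0.23 for mid-villus absorption and -0.54 for villus tip, and the reported counts 1242 and 2582 genes at least 2-fold higher and lower and 65 and 1328 at 4-fold. Values that moved by over 1.5 times for a count, or by more than the spot SD of 0.12 for a distance, follow. Normexp background correction gave counts of 635 genes at least 2-fold higher, 1581 genes at least 2-fold lower, 30 genes at least 4-fold higher and 671 genes at least 4-fold lower, with distances of -11.10 for acinar, -2.41 for smooth muscle, -3.16 for fibroblast, -1.88 for macrophage, -2.40 for interferon, 0.27 for stem cell and 1.43 for mitosis. Quantile normalization gave counts of 2265 genes at least 2-fold higher and 211 genes at least 4-fold higher, with distances of -12.16 for acinar, -4.84 for fibroblast, -3.08 for macrophage, -2.97 for interferon, 1.37 for mitosis, -0.36 for mid-villus absorption and -0.80 for villus tip. The deposited scaling gave counts of 6816 genes at least 2-fold higher, 1538 genes at least 2-fold lower and 633 genes at least 4-fold higher. Putting the pan-epithelial median at 0 gave counts of 319 genes at least 2-fold higher, 4297 genes at least 2-fold lower and 28 genes at least 4-fold higher. Dropping the filter on dim probes gave counts of 2009 genes at least 2-fold higher, 4354 genes at least 2-fold lower, 209 genes at least 4-fold higher and 2136 genes at least 4-fold lower, with distances of -4.22 for smooth muscle, -5.89 for fibroblast, -4.01 for macrophage and 0.58 for stem cell. Keeping only genes above background on both arrays gave counts of 1156 genes at least 2-fold lower and 459 genes at least 4-fold lower, with distances of -12.26 for acinar, -2.21 for smooth muscle and -3.65 for fibroblast. Taking the median over a gene's probes gave a distance of -12.51 for acinar. The other counts and distances of these 9 lists moved by less; over all lists, 110 of 359 distances moved by more than the spot SD. No paired analysis was possible because each group has 1 array, and no array could be left out. Dim signal and the choice of 0 both limit these values, as does having 1 array a side: below a level of -2 the spot SD of a difference was 0.37, against 0.06 above 2.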

Other observations

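Of the 1242 genes at least 2-fold higher in crypts, 56 (4.51%) were dim on both organoid arrays. Beside Osr2, Enpp7 and Gsdmc4 these included Cubn, cubilin, the receptor for vitamin B12 bound to intrinsic factor, at 2.05 on the intestine and 3.13 on the crypt array. Among colonic genes, Aqp8, a water channel, was at 1.70 and 3.11, 2.65-fold higher, while Car1 and B4galnt2 stayed within 2-fold. Car4 differed by -0.12, and by 1.09 through its other probe. Tfrc, the transferrin receptor that dividing cells raise, was at 0.30 and 1.84, 2.90-fold higher (0.91 on the log2 scale by its other probes), and B2m, the light chain of MHC class I, at 6.61 and 5.52, 2.12-fold lower; these were the housekeeping genes past 2-fold. Scn2b, a sodium channel subunit in the stem cell list, was at -1.65 and 0.06, 3.27-fold higher, the largest difference of that list. All of these values come from 1 array per tissue.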
